A study of Mus musculus with 5 samples.

Results

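CpG methylation was examined at 8 genes of the red cell lineage in mouse LSK cells, the Lin- Sca1+ cKit+ bone marrow fraction that holds blood stem cells and multipotent progenitors. The genes are Gata1, Zfpm1, Klf1, Gfi1b, Nfe2, Epor, Hba-a1 and Hba-a2. Their CpGs were taken by position, as every CpG inside 7 mm9 windows: Gata1 (X, 7530 to 7560 kb), Zfpm1 (chromosome 8, 124803 to 124863 kb), Klf1 (chromosome 8, 87423 to 87432 kb), Gfi1b (chromosome 2, 28462 to 28480 kb), Nfe2 (chromosome 15, 103076 to 103092 kb), Epor (chromosome 9, 21761 to 21771 kb) and 1 window for both alpha globin genes (chromosome 11, 32180 to 32202 kb). No measured level set the windows, but they were chosen with earlier results of these data known. The windows held 483 of the 1199578 CpGs covered in any library, and 421 of the 1054226 covered in all 5 libraries. Zfpm1 supplied 305 of these 421 CpGs, Nfe2 31, Klf1 29, Epor 22, Gata1 17 and Gfi1b 17. The alpha globin window held 0 CpGs.

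The 5 libraries were made by enhanced reduced representation bisulfite sequencing (ERRBS), which cuts DNA with MspI at CCGG and reads the ends of fragments of 150 to 400 bp. Bisulfite leaves methylated cytosine read as C and turns unmethylated cytosine into T, so the percent of C at a CpG is its methylation level. All libraries came from C57BL/6 mice. The 3 wild-type libraries carry no targeted allele per the labels, and 2 libraries come from animals with 1 germline-targeted gene; these are titled KO while their genotype label reads +/-, so they are called targeted, without saying how many alleles were hit. No age or sex is given for these libraries. DNA methylation does not show the marker proteins of the sort, so the labelled cell type could not be checked.

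Gata1, an X-linked zinc finger factor, and Klf1, a factor that binds CACCC sequences, switch on most genes of the red cell programme. Zfpm1 (Friend of GATA) is the cofactor that Gata1 works through, Gfi1b is a repressor needed for red cells and platelets, and Nfe2 is the blood-restricted subunit of a factor that acts at globin gene enhancers. Epor is the receptor for erythropoietin, and Hba-a1 and Hba-a2 encode alpha globin, an end product of the programme. In LSK cells the programme has not yet been carried out, and low CpG methylation at a start site is common to active genes and to many silent CpG-rich ones.

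RefSeq promoter sequences (GRCm38.p6, 250 bases before to 50 after the start site) were found for 7 of the 8 genes; Nfe2 had no entry. The Zfpm1 promoter held 37 CG pairs, against a median of 7 over 32544 promoters. Gfi1b and Epor held 7 each, Gata1, Hba-a1 and Hba-a2 4 each, and Klf1 3. Matching the spacing of CG letters to the measured CpGs placed the Zfpm1 promoter in the files' numbering: 32 of 32 covered CpGs fell on a CG, and the next best offset matched 3. It spans 124805791 to 124806090 on the plus strand of chromosome 8 (mm9), with the start site at 124806041. Fewer than 4 CpGs matched for each of the other 6 promoters, so positions in those windows are given without a start site, exon or intron. The 250 bases before the start sites of Zfpm1 and of both alpha globin genes are shown because they are the best read promoter and those with no reading. Capitals in the Zfpm1 line mark the 23 CG pairs, of 28 there, that were covered in all 5 libraries; capitals in the alpha globin lines mark the MspI site CCGG.
Zfpm1: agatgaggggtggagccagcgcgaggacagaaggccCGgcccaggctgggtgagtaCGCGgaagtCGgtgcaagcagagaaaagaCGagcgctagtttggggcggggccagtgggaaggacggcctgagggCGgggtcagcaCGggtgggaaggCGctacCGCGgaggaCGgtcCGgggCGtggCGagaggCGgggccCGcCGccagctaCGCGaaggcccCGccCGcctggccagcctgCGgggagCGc
Hba-a1: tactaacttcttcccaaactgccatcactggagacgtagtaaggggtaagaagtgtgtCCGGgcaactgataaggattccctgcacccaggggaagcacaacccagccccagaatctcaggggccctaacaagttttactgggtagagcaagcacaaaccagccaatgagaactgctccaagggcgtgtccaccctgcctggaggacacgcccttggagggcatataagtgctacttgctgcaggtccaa
Hba-a2: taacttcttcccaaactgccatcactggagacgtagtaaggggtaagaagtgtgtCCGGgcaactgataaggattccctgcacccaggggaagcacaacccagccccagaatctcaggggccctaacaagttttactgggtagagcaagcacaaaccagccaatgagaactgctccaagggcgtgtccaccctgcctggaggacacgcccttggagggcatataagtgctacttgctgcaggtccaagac

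The alpha globin promoters each hold 1 CCGG, and they share an identical run of 297 of 300 bases, shifted by 3. CCGG occurs in 53.0% of all promoters in the table; Zfpm1 and Epor have 3 each, and Gata1, Klf1 and Gfi1b have 0. CACCC or its reverse complement GGGTG, the letters Klf1 binds, occurs in 57.7% of all promoters and in all 7 member promoters (3 times in Zfpm1, once in Gfi1b and 2 times in each of the others). AGATAA or TTATCT, a form of the GATA motif, occurs in 11.2% of all promoters and once in Epor, with no match in the other 6 windows of 300 bases. Other forms were not searched, so a promoter without this match may still hold one. Both alpha globin lines above contain tgataa. Both strands were searched, and a match is a run of letters, not a bound site.

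The libraries had 1354420 to 1473602 strand entries each. The median coverage per entry was lowest in targeted library 1, at 70 reads. It was 99 in targeted library 2 and 91, 96 and 75 in wild-type libraries 1 to 3. In its methylation levels, targeted library 1 stood apart from the other 4. The mean level over all CpGs covered everywhere was 35.7% in it, 34.9% in targeted library 2 and 34.6% to 34.8% in wild type. Autosomal CpGs were also classed by their mean over all libraries, targeted library 1 included. In the class of 20% to 40% targeted library 1 averaged 35.6%, against 28.9% in targeted library 2 and 27.7% to 28.3% in wild type. In the class over 80% it averaged 94.7%, against 93.6% to 94.1% in the others. Differences at partly methylated CpGs are therefore given for each targeted library, and the part of this shift in them was not tested.

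Mean methylation differed widely between the gene windows and little between libraries. In the wild-type libraries Gata1 was highest at 89.8% ± 2.14 (SD, n = 3), followed by Gfi1b at 64.5% ± 1.60, Zfpm1 at 41.1% ± 0.461, Nfe2 at 21.7% ± 0.497, Epor at 14.0% ± 0.212 and Klf1 at 3.54% ± 0.129. The order was the same in all 5 libraries, and no neighbours in it overlapped. Each mean depends on which CpGs the assay covers, so it ranks covered CpGs, not whole genes. Over the 6 windows with data, 54.9% of CpGs lay under 20% in wild type, 9.26% between 20% and 80%, and 35.9% over 80%; the shares over all CpGs of the series were 60.3%, 7.55% and 32.1%.

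**Figure D1:**
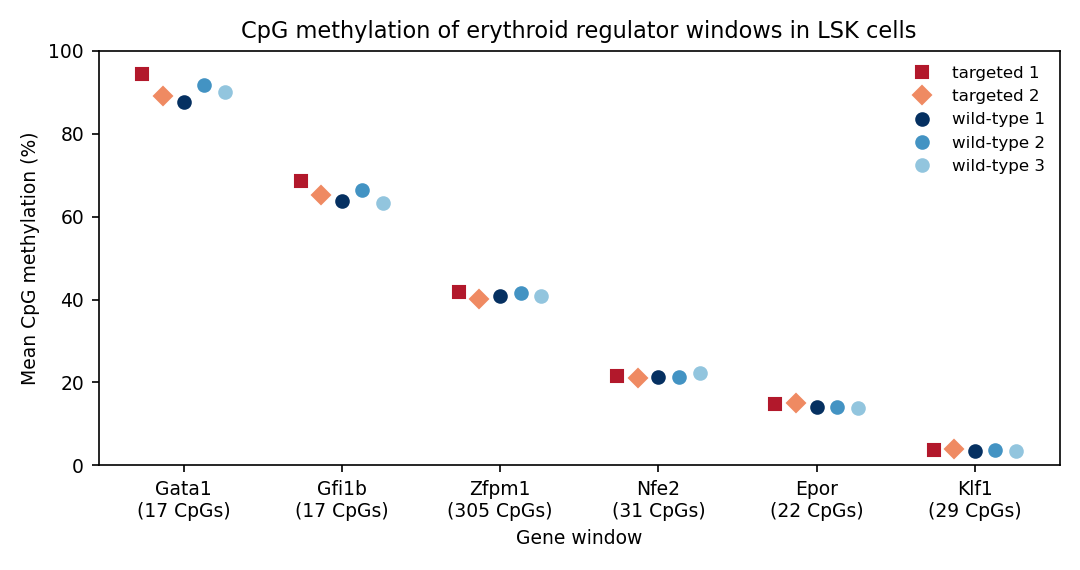
Mean CpG methylation (%, y axis) of the 6 gene windows with data (x axis), over the CpGs covered in all 5 libraries; each symbol is 1 library. The windows step down from Gata1 (87.5% to 94.5%) to Klf1 (3.44% to 3.87%), and the libraries of a window lie close together.

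At Gata1, the CpGs were highly methylated in every library. The 17 CpGs averaged 94.5% in targeted library 1, 89.0% in targeted library 2, and 87.5%, 91.8% and 90.1% in wild-type libraries 1 to 3. The groups overlapped, and the difference of 1.95 points (targeted 91.7% ± 3.82, n = 2) had p = 0.5 by the exact permutation test (two-sided, 10 splits, smallest possible p 0.1). Without targeted library 1 it was -0.755. In wild type 15 of the 17 CpGs were over 80% and 2 were partly methylated. Both of the latter lie together: the CpG at 7548831 stood at 64.9%, 34.6%, 50.0%, 57.6% and 51.2% (targeted 1 and 2, then wild-type 1 to 3), and the CpG at 7548873 at 100%, 81.5%, 64.7%, 81.8% and 78.6%. The second had the largest difference of the Gata1 window, 15.7 points (unadjusted p = 0.0694, adjusted p = 0.876, edgeR quasi-likelihood test). Targeted library 1 was highest at both CpGs. The lowest p of a Gata1 CpG was at 7532717, at 99.4% and 97.5% against 94.9%, 96.5% and 92.5% (unadjusted p = 0.0553, adjusted p = 0.876, edgeR). Targeted library 1 was also the highest over all X-linked CpGs, at 60.1% against 54.8% in targeted library 2 and 54.1% to 54.5% in wild type, and its part in these values was not tested.

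The Gata1 stretch from 7534769 to 7534897 (3 CpGs) was the one of 4 whose groups did not overlap. Over all stretches of the series 23% did not overlap, and in 17.7% both targeted libraries were above all wild-type ones. The Gata1 stretch stood at 98.5% and 97.0% in the targeted libraries and at 86.1%, 92.7% and 95.2% in wild type. The difference of the 1000 bp tile that holds its 3 CpGs was 6.43 points (unadjusted p = 0.0196, edgeR quasi-likelihood test). This did not pass adjustment over all tiles (adjusted p = 0.782, edgeR). The tile was called in none of the 11 alternatives that kept it (edgeR or limma). Only 78 reads in wild-type library 1 and 77 in targeted library 2 stood behind these values, and reads count once per CpG. Without wild-type library 1, the lowest of the 5, the difference was 3.82 points. The labels give no sex. In wild type 39.9% of all X-linked CpGs lay between 20% and 80%, against 6.77% of autosomal CpGs. The share of an inactive X chromosome in the Gata1 levels was not tested.

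Zfpm1 was the best covered gene and showed the full range of methylation along its length. Its 305 CpGs averaged 41.8% and 40.2% in the targeted libraries against 40.9%, 41.7% and 40.8% in wild type. The targeted values lie on both sides of the wild-type values, and the difference was -0.107 points (targeted 41.0% ± 1.13, exact permutation test, two-sided, n = 2 and 3, p = 1). Weighting by reads instead of CpGs made it 5.94 points. Reads on the methylated far end described below and around the start site differed between libraries. They were 13010 and 14094 in targeted library 1, and 12185 and 23368 in targeted library 2. Wild-type libraries 1 to 3 had 11252 and 21780, 12254 and 21636, and 8395 and 17210. The part of these read counts in the shift was not tested. In wild type 159 of the CpGs were under 20%, 118 over 80% and 28 between.

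At the Zfpm1 start site methylation was close to 0. The 32 CpGs of the placed promoter, whose sequence is printed above, averaged 0.0275% and 0.0306% in the targeted libraries against 0.0744%, 0.0213% and 0.0398% in wild type. Between 3627 and 4875 reads per library covered them, of which 1 or 2 were methylated. The unmethylated region reached further: 132 CpGs from -863 to +1500 bases of the start site averaged 0.0817%, 0.112%, 0.236%, 0.0881% and 0.0833%, and 131 of them stayed under 5% in every library. The highest single value there was 5.26%. Wild-type library 1 had more methylated reads in this region (46 of 21780) than the other 4 (12 to 21 of 14094 to 23368), and in its largest stretch (115 CpGs from 124805827) its Wilson 95% interval, 0.131% to 0.251%, lay above those of targeted library 2, wild-type library 2 and wild-type library 3.

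At the other end, Zfpm1 carried a dense block of methylated CpGs. From 124859554 to 124862315, that is +53513 to +56274 bases from the start site, 103 CpGs in 2763 bp averaged 95.2% and 93.8% in the targeted libraries against 95.1%, 95% and 94.9% in wild type. In wild type 100 of the 103 exceeded 80%. Their mean was 0.544 points lower in the targeted libraries than the wild-type mean of 95% ± 0.0997 (SD, n = 3), with targeted library 1 above and targeted library 2 below all wild-type libraries. CpG-dense DNA of this kind is rarely methylated in these libraries: of 690 tiles of 1000 bp with at least 80 covered CpGs, 681 (98.7%) lay under 20% in wild type and 1 (0.145%) lay over 80%. That 1 tile is in Zfpm1, at 124860001 to 124861000, where 82 CpGs stood at 94.9%, 93.3%, 94.7%, 94.9% and 94.7%. At 30 or more covered CpGs, 61 of 8066 tiles (0.756%) were over 80%. The minimum of 80 was chosen after the Zfpm1 tile was seen, so its being the only one is a description.

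**Figure D2:**
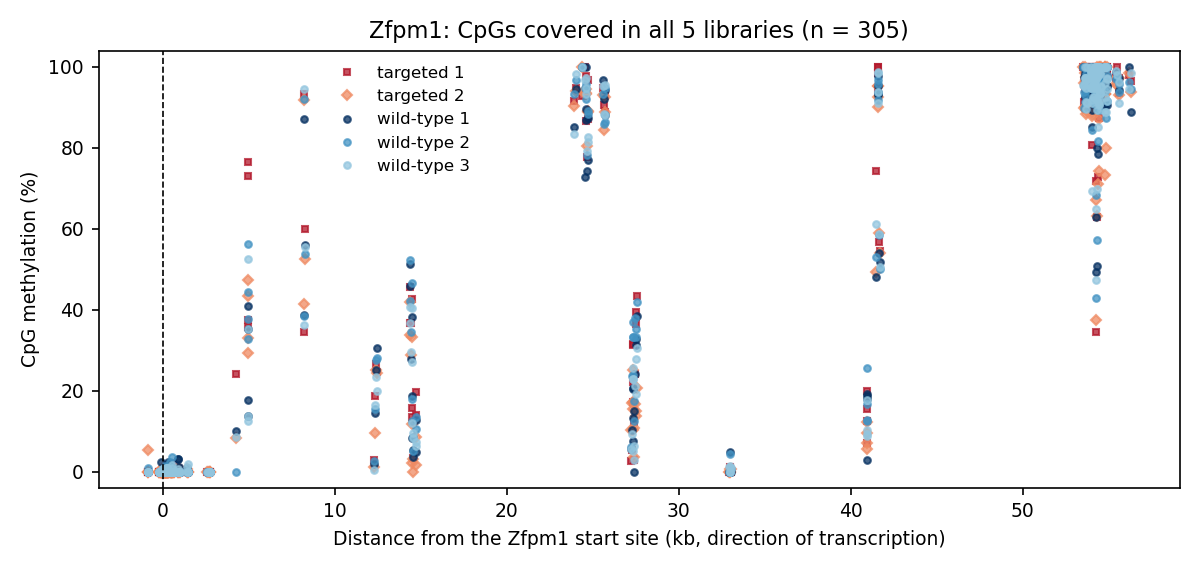
Methylation (%, y axis) of the 305 Zfpm1 CpGs covered in all 5 libraries against distance from the start site (kb, x axis, dashed line at 0); each symbol is 1 CpG in 1 library. Levels are near 0 around the start site, mixed between 4 and 42 kb, and mostly over 80% in the block beyond 53 kb.

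Between both ends, 70 Zfpm1 CpGs from +2589 to +41691 averaged 41.9% and 37.1% in the targeted libraries against 37.8%, 41.5% and 38.0% in wild type. Their short stretches (runs of at least 3 CpGs no more than 200 bp apart) alternated along the gene. At +2589 a stretch of 6 CpGs had 0 methylated reads in every library (0 of 176 to 395 reads, which allows a level of up to 1.70% in targeted library 1 and 0.759% in wild-type library 3, counting error only). At +24408 and +25611 wild-type levels were 89.4% and 91.6%, at +27253 they dropped to 21.0%, and at +32922 to 0.884%. At +41485 the level was 77.4% again.

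The widest spread between libraries in Zfpm1 was at +4933 (124810974 to 124811008, 4 CpGs), with 55.7% and 38.2% in the targeted libraries against 26.9%, 42.8% and 28.6% in wild type. Targeted library 1 was above all others, and targeted library 2 lay inside the wild-type range. The reads behind them were few (124, 284, 200, 366 and 173 in the same order), and the Wilson 95% interval of the pooled 54.0% in targeted library 1 ran from 45.3% to 62.6%. The difference of 14.2 points had unadjusted p = 0.122 and adjusted p = 0.781 (edgeR quasi-likelihood test). It includes the CpG with the largest difference of the 6 windows with data, 124811008, at 76.5%, 43.3%, 35.1%, 37.7% and 35.3% (23.9 points, unadjusted p = 0.119, adjusted p = 0.876, edgeR). In targeted library 1 that value rests on 13 methylated and 4 unmethylated reads.

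A Zfpm1 stretch of near-zero methylation, at 124838963 to 124839072 (5 CpGs), stood at 0.25% and 0.303% in the targeted libraries against 0.972%, 1.0% and 0.682% in wild type. The groups did not overlap, with unadjusted p = 0.0479 and adjusted p = 0.755 (edgeR quasi-likelihood test). The methylated reads were 1 of 268 and 2 of 462 in the targeted libraries against 7 of 456, 7 of 463 and 6 of 710 in wild type. As a tile, with 3 of the CpGs, it had unadjusted p = 0.0733, the lowest of the Zfpm1 tiles (adjusted p = 0.789, edgeR). The lowest p of any single Zfpm1 CpG was 0.0184 (adjusted p = 0.876, edgeR) at 124860846 in the dense block, where targeted library 2 stood at 73.3% (11 methylated and 4 unmethylated reads) and the other 4 libraries at 100%.

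At Klf1, 28 of the 29 CpGs were low and 1 was highly methylated. The CpGs averaged 3.58% and 3.87% in the targeted libraries against 3.44%, 3.69% and 3.51% in wild type. The difference was 0.182 points (targeted 3.73% ± 0.201, exact permutation test, two-sided, n = 2 and 3, p = 0.3). Nearly all of the mean came from 1 CpG, at 87430925, which stood at 98.4%, 97.8%, 93.9%, 94.5% and 96.5%; the groups did not overlap there, at 3.16 points and unadjusted p = 0.171 (adjusted p = 0.876, edgeR). The stretch from 87426622 to 87426961 (21 CpGs) stood at 0.261%, 0.683%, 0.276%, 0.592% and 0.248%, with unadjusted p = 0.479 for its tile (adjusted p = 0.913, edgeR). Its first CpG, 87426622, had the lowest p of the gene (unadjusted p = 0.102, adjusted p = 0.876, edgeR), at 0.641%, 2.19%, 0.543%, 0% and 0%. The next, from 87427419 to 87427464 (7 CpGs), had 0 methylated reads among 154 to 213 in every library, which allows levels of up to 1.95% in targeted library 1 and 1.41% in wild-type library 3. A further 6 Klf1 CpGs from 87427290 to 87427337 were at 0 in the 4 libraries that covered them and were not covered at 10 reads in targeted library 1. Beyond 87430925, 2 Klf1 CpGs covered in targeted library 1 and wild-type library 3 only were methylated, 87431012 at 100% in both and 87431055 at 90% and 94.1%.

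Gfi1b CpGs were mostly methylated or partly methylated. The 17 CpGs averaged 68.5% and 65.2% in the targeted libraries against 63.8%, 66.4% and 63.4% in wild type. Targeted library 1 was highest and targeted library 2 lay inside the wild-type range, and the difference of 2.31 points (targeted 66.8% ± 2.34) had p = 0.3 (exact permutation test, two-sided, n = 2 and 3). Without targeted library 1 it was 0.654. The stretch at 28468380 to 28468551 (5 CpGs) was at 94.6% to 97.1% in all libraries. The stretch at 28476289 to 28476381 (5 CpGs) stood at 39.9% and 32.4% in the targeted libraries against 26.3%, 34.1% and 23.5% in wild type. Its groups overlapped, since wild-type library 2 exceeded targeted library 2. The difference was 8.21 points, with unadjusted p = 0.0515 as a tile (adjusted p = 0.785, and 0.419 to 1.0 over 15 alternatives, edgeR or limma) and unadjusted p = 0.0484 as a stretch (adjusted p = 0.755, edgeR). Leaving out targeted library 1 gave the tile a difference of 4.47 points, and leaving out targeted library 2 gave 12.0 points. The single CpG at 28476335 had the largest difference of the gene, at 45.6%, 36.0%, 25.9%, 31.9% and 23.9% (13.5 points, unadjusted p = 0.116, adjusted p = 0.876, edgeR), and 28476289 the lowest p, at 27.7%, 9.78%, 8.70%, 17.1% and 2.63% (unadjusted p = 0.0821, adjusted p = 0.876).

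Part of the intermediate Gfi1b level came from CpGs whose 2 strands read oppositely. Of the 135 CpGs in the windows measured on both strands in all 5 libraries, 18 were partly methylated and 8 of these differed by over 50 points between strands; the other dyads differed by at most 9.15 points. These 8 form 4 pairs, 2 in Gfi1b and 2 in Zfpm1, each with its partner 47 to 50 bp away and opposite in sign. At Gfi1b 28467109 the forward strand read 96.9% and the reverse strand 0% over 5 libraries, while at 28467159 the forward strand read 0.951% and the reverse strand 94.5%. At 28472243 and 28472293 the forward strand read 92.7% and 0.671%, and the reverse strand 1.11% and 96.3%. Each library showed the same arrangement: at 28467109 the forward strand was at 98.4%, 94.4%, 98.6%, 96.5% and 96.5%.

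The Zfpm1 pairs were alike. Position 124814241 read 97.8% forward and 0.481% reverse, and 124814290 read 0.828% forward and 88.3% reverse. In the dense block, 124860313 read 91.1% forward and 1.11% reverse, and 124860360 read 35.9% forward and 94.1% reverse. The forward value at 124860360 varied most, from 24.8% in wild-type library 1 to 56.6% in wild-type library 3. This arrangement was not particular to these genes: over the series 7568 of 272649 dyads (2.78%) differed by over 50 points, 35.7% of the 21177 partly methylated ones, and 86.6% of them had an opposite partner within 60 bp, at a median of 48 bp. In ERRBS the ends of MspI fragments are filled in with added nucleotides before sequencing; the part of that step in these values was not tested. Without the discordant CpGs the remaining 13 Gfi1b CpGs averaged 74.5% and 70.5% in the targeted libraries against 68.6%, 72.3% and 68.1% in wild type, a difference of 2.79 points. That setting was added after the data were seen.

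**Figure D3:**
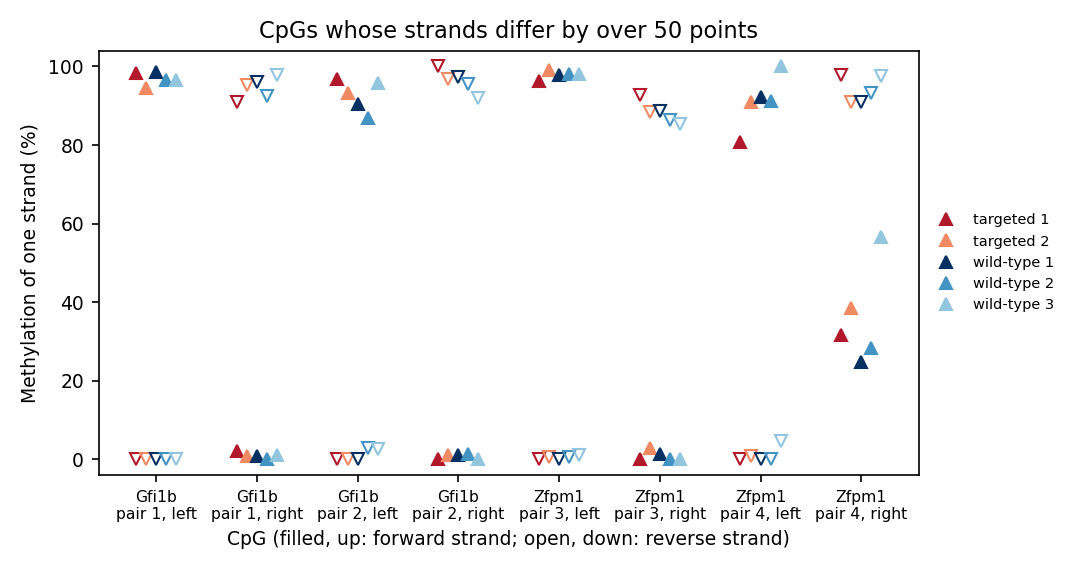
Methylation (%, y axis) of each strand at the 8 CpGs of Gfi1b and Zfpm1 whose strands differ by over 50 points (x axis, in 4 pairs); filled triangles are the forward strand, open triangles the reverse strand, colours the 5 libraries. In each pair the methylated strand changes sides, and 124860360 (pair 4, right) is the only one with a low strand above 5%.

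Nfe2 combined methylated and unmethylated stretches. The 31 CpGs averaged 21.7% and 21.1% in the targeted libraries against 21.4%, 21.3% and 22.2% in wild type, with 24 under 20%, 6 over 80% and 1 between. The groups overlapped, with a difference of -0.306 points (targeted 21.4% ± 0.431, exact permutation test, two-sided, n = 2 and 3, p = 0.6). The 18 CpGs from 103085611 to 103085948 were at 0% to 0.306%. The 3 CpGs from 103089070 to 103089107 had 0 methylated reads among 119 to 439, which allows up to 2.52% in targeted library 1 and 0.683% in wild-type library 2. The stretch from 103079256 to 103079366 (6 CpGs) stood at 92%, 91.3%, 93.0%, 92% and 94.8%, with unadjusted p = 0.229, the lowest of the Nfe2 tiles (adjusted p = 0.835, edgeR). Within it the CpG at 103079338 had the lowest p and the largest difference of the gene, at 87.7% and 88.9% in the targeted libraries against 96.9%, 98.7% and 96.3% in wild type. It was 9.0 points lower in the targeted libraries, and its groups did not overlap (unadjusted p = 0.0230, adjusted p = 0.876, edgeR). The stretch from 103089941 to 103090018 (3 CpGs) was low but above 0, at 10.5%, 7.15%, 9.86%, 8.97% and 12.7%.

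Epor, the receptor gene, gave the smallest p of the group, at low methylation. The 22 CpGs of its window averaged 14.8% and 15.1% in the targeted libraries against 14.0%, 14.2% and 13.7% in wild type. Both targeted values exceeded the 3 wild-type values, and the difference of 0.986 points (targeted 14.9% ± 0.252) reached the smallest p the design allows, 0.1 (exact permutation test, two-sided, n = 2 and 3). The mean over all CpGs of the series had the same arrangement and the same p of 0.1, at 35.7% and 34.9% against 34.6% to 34.8%, a difference of 0.610 points, and so did the autosomal and the X-linked CpGs taken apart. The Epor difference kept its sign with each library left out, at 0.808 to 1.16 points. In wild type 19 of the CpGs were under 20% and 3 were over 80%; the latter, from 21763897 to 21764073, stood at 95.1% to 98.2% in all libraries.

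The Epor difference lay in the stretch from 21765911 to 21766013 (7 CpGs), which stood at 4.19% and 4.61% in the targeted libraries and at 0.843%, 1.90% and 1.56% in wild type. Both targeted libraries were above all wild-type ones, as in 17.7% of all stretches. The pooled reads gave 21 methylated of 535 (Wilson 95% interval 2.58% to 5.93%) and 29 of 675 (3.01% to 6.10%) in the targeted libraries, against 6 of 667 (0.413% to 1.95%), 11 of 647 (0.952% to 3.02%) and 15 of 996 (0.915% to 2.47%) in wild type. The stretch differed by 2.96 points (unadjusted p = 0.000828) and the tile from 21765001, with 6 of these CpGs, by 3.56 points (unadjusted p = 0.000769). Neither passed adjustment over the genome (edgeR quasi-likelihood test, adjusted p = 0.632 and 0.677), and the difference is below the 10 points set for a call. The tile was called in none of the 13 alternatives that kept it (edgeR or limma). In those alternatives it was 3.18 to 3.8 points higher in the targeted libraries, those without targeted library 1 included.

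Within the Epor stretch, the CpG at 21765941 had the lowest p of all member CpGs, 0.00927 (adjusted p = 0.876, edgeR), at 12.5%, 10.1%, 1.16%, 6.41% and 0.752%. It was called in none of 11 alternatives (edgeR or limma). At 2 of the 6 other CpGs both targeted libraries exceeded all wild-type ones, an arrangement found at 10.8% of all CpGs tested. The CpG at 21765911 stood at 5.63% and 4.44% against 0%, 1.30% and 0.746%, and 21765922 at 8.57% and 8.05% against 0%, 3.85% and 3.03%. The groups overlapped at 21765927 (1.39% and 6.74% against 0%, 0% and 2.26%) and at 21765993, where only targeted library 2 was above 0%. At 21765983 (1.20% and 1.94% against 3.81%, 0.877% and 4.17%) and 21766013 (0% and 0% against 0.926%, 0.885% and 0%) the targeted mean was the lower one. Neighbouring CpGs share reads, so they are not separate observations. The next Epor stretch, from 21766496 to 21766762 (12 CpGs), stood at 0.436%, 0.481%, 0.823%, 0.477% and 0.478%, with the groups overlapping.

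**Figure D4:**
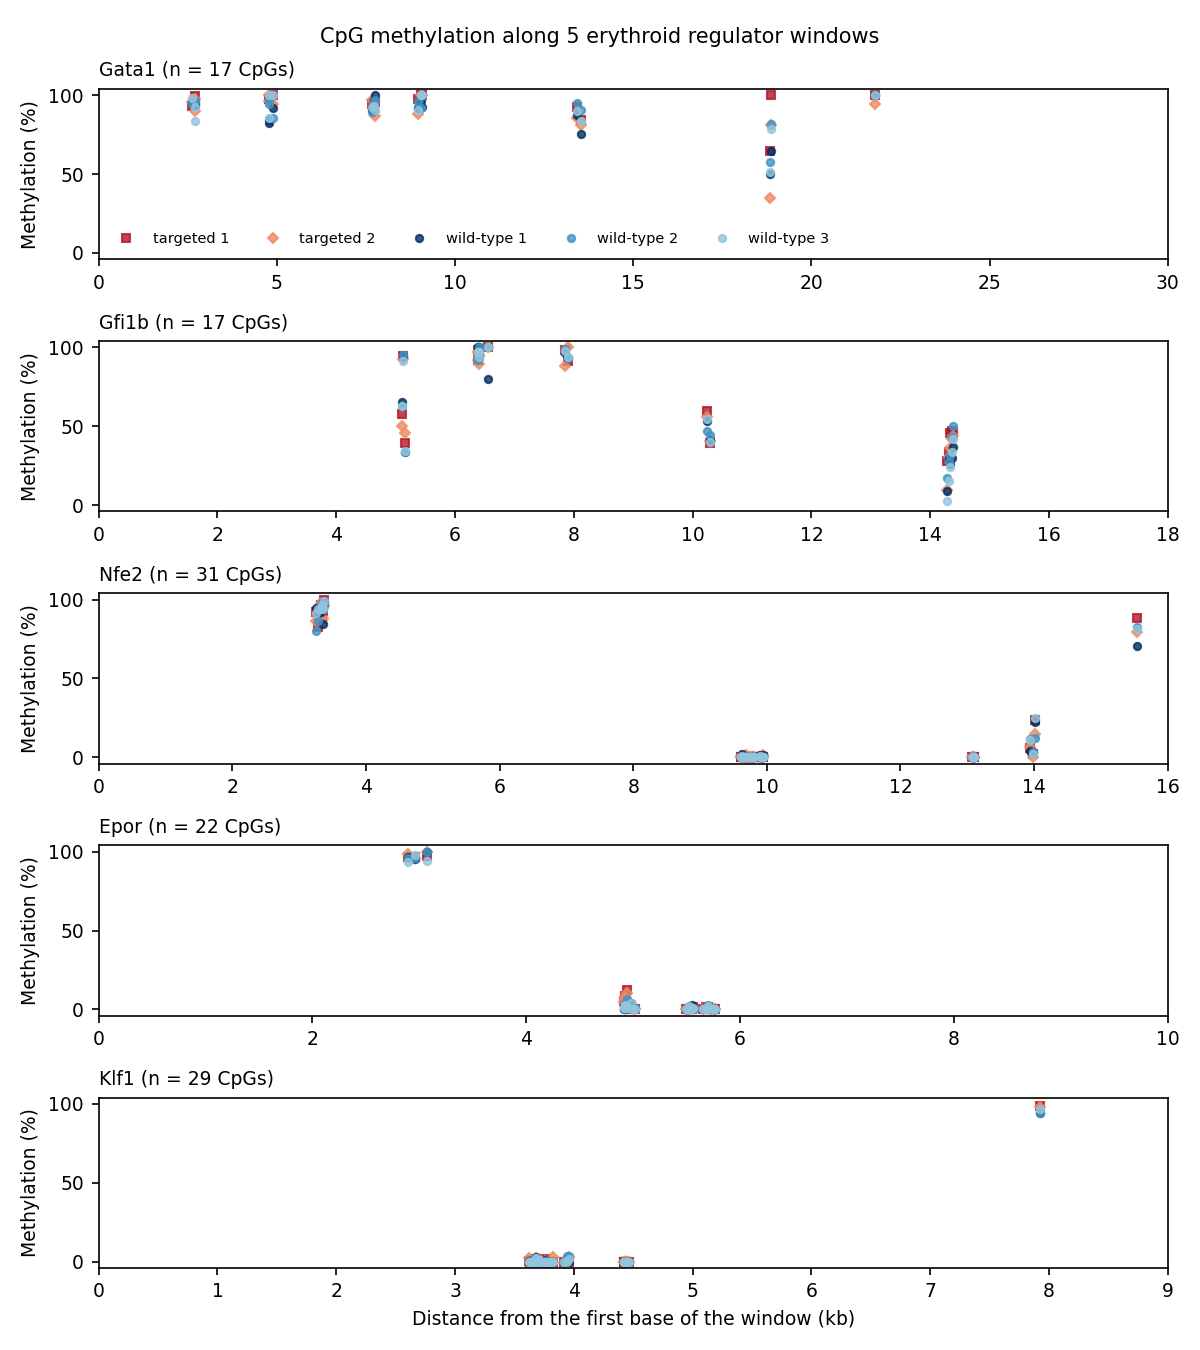
Methylation (%, y axis) of the CpGs of Gata1, Gfi1b, Nfe2, Epor and Klf1 covered in all 5 libraries against distance from the first base of each window (kb, x axis); each symbol is 1 CpG in 1 library. Gata1 CpGs sit high, Klf1 CpGs near 0 except 1, and at Epor the targeted symbols near 5 kb reach 12.5%.

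The alpha globin window, the output end of the programme, gave no value: the nearest covered CpGs lie at 32178620 and 32224485, 45865 bp apart on chromosome 11. The 11 CpGs next to it, from 32177728 to 32178620, stood at 86.5% and 88.4% in the targeted libraries against 88.3%, 90.5% and 86.4% in wild type, with the groups overlapping. They are outside the window and are no measure of Hba-a1 or Hba-a2.

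Across the 6 windows with data, no tile and no CpG was called different between the groups. The alpha globin genes had no covered CpG and could not be tested. A call needed an adjusted p under 0.05 (edgeR quasi-likelihood test, Benjamini-Hochberg over all units) and a difference of 10 points or more for tiles of 1000 bp, or 25 points or more for single CpGs. Of 28 member tiles tested 0 were called, where 0.014% of all tiles were called; of 311 member CpGs tested 0 were called, where 0.0087% of all CpGs were. These shares are so low that a count of 0 does not set the members apart. At an unadjusted p under 0.05 there were 2 member tiles (7.14%), in Epor and Gata1 and both higher in the targeted libraries, against 6.38% of all tiles (5.4% in that direction); limma called 0 member tiles, with 3 at an unadjusted p under 0.05. For CpGs there were 6 (1.93%), against 3.08% of all CpGs, and limma called 0 with 13 under 0.05.

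Groups without overlap made up 3 of 28 member tiles (10.7%), against 23% of all tiles, and 50 of 311 member CpGs (16.1%), against 15.8% of all CpGs. The median difference was -0.172 points over the member tiles and 0.308 over all tiles, and -0.122 over the member CpGs and 0.222 over all CpGs.

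Grouping the CpGs into 35 stretches (405 CpGs) showed where the libraries differed. Of these, 15 lay under 20% in wild type, 13 over 80% and 7 between; the last were in Zfpm1 (5) and Gfi1b (2), while Gata1 had 4 stretches, all over 80%. Targeted library 1 exceeded targeted library 2 in 7 of 7 partly methylated stretches, 11 of 13 over 80% and 4 of 15 under 20%. The partly methylated stretches at Gfi1b 28467109 and Zfpm1 124814241 have 3 CpGs each, among them a pair whose strands read oppositely, as described above. In them targeted library 1 stood at 63.93% and 62.56%, and targeted library 2 at 62.98% and 61.95%. The counts of targeted library 1 over targeted library 2 were not compared with all stretches of the series. Among the 32 stretches with methylated reads 0 were called, where 0.0129% of all stretches were, and 4 had an unadjusted p under 0.05 (12.5%, against 6.62% of all): those of Epor and Gata1 above, the Gfi1b stretch at 28476289 and the Zfpm1 stretch at 124838963.

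**Figure D5:**
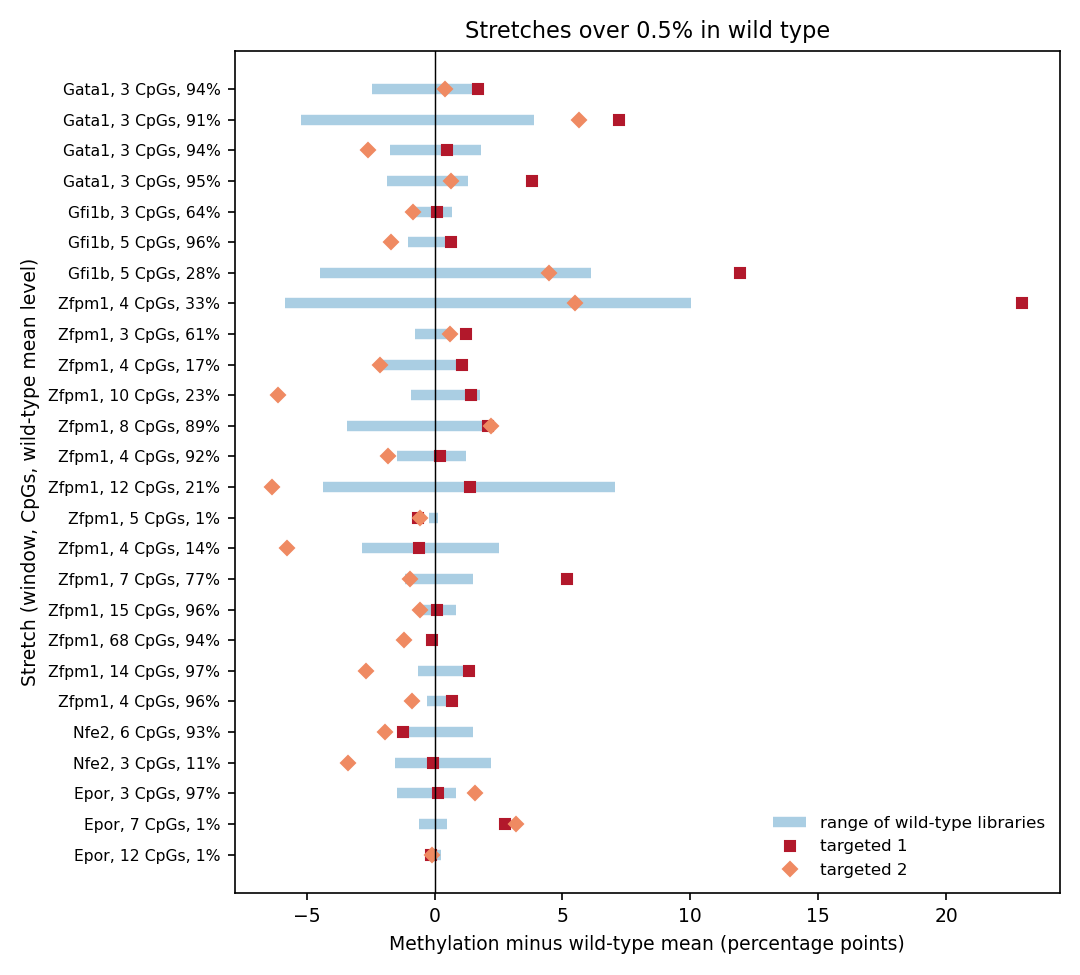
Difference of each targeted library from the wild-type mean (percentage points, x axis) for the 26 stretches over 0.5% in wild type (y axis, with gene, CpGs and wild-type level); bars show the range of the 3 wild-type libraries around their mean. The widest departures are those of targeted library 1 at Zfpm1 (+4933) and Gfi1b, and at Epor both targeted libraries lie beyond a narrow bar.

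A base change that leaves neither C nor T reads at a CpG cytosine would leave its position out of a table. A change from C to T would be read as unmethylated, and a change on only some copies would keep the position. Absent positions cannot show changes of either kind. Of 321 strand positions in the windows that had 50 or more reads in each of the wild-type libraries, 0 were absent from either targeted library; over the genome 0.0757% of 882347 such positions were absent from targeted library 1 and 0.0453% from targeted library 2.

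Start sites of other red cell genes were read by the same placement, from a list of 35 genes (globins, membrane proteins, partners of Gata1, and receptor and stem cell factors). RefSeq held promoters for 28 of them, and 15 promoters of 13 genes could be placed by at least 8 CpGs, a minimum chosen after the data were seen. They belong to Sptb, Ldb1, Tcf3, Gata2, Bcl11a, Myb, Stat5a, Jak2, Mafg, Runx1, Gfi1, Klf2 and Klf3. Promoters with few CpGs could not enter by this placement, and no globin gene did. Of all tiles with 30 or more covered CpGs, 96.7% lay under 20% in wild type, so low levels are common in CpG-dense DNA. The 14 promoters with CpGs covered in all 5 libraries were all under 3% in every library, with a highest value of 2.86% at Gfi1 in wild-type library 2. Of the 14 tiles tested that hold them 0 were called (0.014% of all tiles) and 3 had an unadjusted p under 0.05 (6.38% of all tiles): Myb, a progenitor transcription factor (0.180 points, unadjusted p = 0.0196), Ldb1, the bridge protein of the Gata1 complex (0.0714 points, unadjusted p = 0.0307), and Bcl11a, a repressor of globin genes (0.196 points, unadjusted p = 0.0332), each with adjusted p = 0.782 (edgeR). At Myb the 8 promoter CpGs themselves differed the other way, by -0.211 points. Their median tile difference was 0.0495 points, against 0.308 over all tiles.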

How the data were processed

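Per the file headers, the authors' tables give every CpG cytosine on its own strand, with a coverage count and the percent of reads with C and with T; no deposited coverage is under 10. The submitters' processing notes name Bismark as the aligner and mm9 (NCBIM37) as the build, per the labels; no Bismark version was given in the sources. Coverage summed to 122015958 (targeted library 1), 151634492 (targeted library 2), 140469056, 147303723 and 128994674 (wild-type libraries 1 to 3). The targeted gene is not reported here.

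Methylated reads were recovered by rounding, both strands of a CpG were merged, and the highest 0.1% of coverage per library was left out. Units were 1000 bp tiles holding 3 or more CpGs and the CpGs themselves, covered in all 5 libraries on chromosomes 1 to 19 and X. They were tested with edgeR 4.0.16 on methylated and unmethylated counts, with a factor per library and a common dispersion. The fit was tried on simulated tiles, with large changes at tiles of intermediate level only. That trial does not show whether differences of a few points, or at low or high levels, would be found. Units whose reads were all alike (all methylated or all unmethylated) were left untested. Differences are targeted minus wild-type means over libraries, and levels are unweighted means over CpGs. Window means were compared by exact permutation. No label ties a library to an animal of its own, so p-values reflect library spread alone, which may be technical. Without molecular identifiers, Wilson intervals and the limit of 3 reads for a count of 0 cover counting error only.

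Named in the text are all 8 genes and, for each window, the tile and CpG of lowest p and the CpG of largest difference; of other red cell genes, those called or else the 3 of lowest p. Other CpGs are given by stretch, and a few single CpGs were named after their values were seen. Members and lists were chosen with earlier results of these data known. Settings varied were the coverage minimum (20), the upper coverage limit (none), the libraries (each left out), the replicate block, the test (limma 3.58.1, log2 ratios, adding 1 read), chromosome 6 beyond 100 Mb (left out), X (left out), the tile (500 and 2000 bp, or at least 5 CpGs), pooled reads, and the CpGs of each library. Stretches, a robust edgeR fit and the setting without strand-discordant CpGs were added after the data were seen. R 4.3.3, data.table (1.17.8) and matplotlib 3.10.9 were used.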

Additional observations from a re-analysis of the deposited data

How the results depend on the processing

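No member tile was called in the 15 alternatives run, and no member CpG in the 11. Counts over all units moved more: 13 tiles were called in all, 0 without chromosome 6 beyond 100 Mb, 0 with limma, 3 with at least 5 CpGs per tile and 1 to 16 with 1 library left out (1 without targeted library 1, and 5, 2 and 2 without wild-type libraries 1, 2 and 3). Of 68 called CpGs, 15 were called without chromosome 6 beyond 100 Mb and 36 with limma, and 52 to 87 with 1 library left out. The Zfpm1 difference turned positive with pooled reads (5.94 points) and with the CpGs of each library (0.562), and ran from -0.906 to 0.691 with 1 library left out. Gata1 ran from -0.755 (without targeted library 1) to 4.65. Epor, Klf1, Gfi1b and Nfe2 kept their direction in the alternatives run, but not their size. Epor was 3.61 and Gfi1b 6.73 with pooled reads, Epor 1.56 with the CpGs of each library, and Gfi1b 0.654 without targeted library 1 and 3.96 without targeted library 2. Klf1 was 0.0139 pooled, 1.71 with the CpGs of each library, 0.324 without targeted library 1 and 0.0395 without targeted library 2. Nfe2 was -0.0571 pooled, -1.12 with the CpGs of each library, -0.611 without targeted library 1, -0.0013 without targeted library 2, -0.472 without wild-type library 2 and -0.0204 without wild-type library 3. The cause of these shifts was not tested.

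The labels do not say whether same-numbered libraries belong together. Deviations of same-numbered libraries from their group means correlated at -0.0197 and -0.0184 over 12895 tiles. The deviations of the 2 targeted libraries are opposite by construction, and such values cannot show whether libraries share an origin. With the replicate block 21 tiles and 59 CpGs were called, 0 of them members.

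With 2 targeted libraries, a difference of a few points at partly methylated CpGs, where targeted library 1 stands apart, cannot be told from the spread between libraries. Groups of 2 and 3 libraries are too small for an outlier rule.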

Other observations

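Some CpGs of these genes were covered in part of the libraries only and belong in no comparison. At Epor, 3 CpGs from 21767783 to 21768044 were read in at most 2 libraries: the one at 21767996 stood at 66.7% in targeted library 1 (12 reads) and 12.5% in wild-type library 3 (40 reads). At Epor 21766158, 21766167 and 21766177, 3 libraries read 0%. At Zfpm1, the CpGs at 124810249, 124810254 and 124810258, just before the stretch with the widest spread, were read in 4 libraries; the first stood at 72.4% and 33.3% in the targeted libraries against 50.0% and 75% in wild-type libraries 2 and 3. At Gata1, the CpGs at 7548695 and 7548705, next to the partly methylated pair, stood at 70.6% and 56.3% in targeted library 1, 71.4% and 66.7% in targeted library 2 and 65.4% and 70.4% in wild-type library 3.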
